A study of Mus musculus with 6 samples.

Results

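Cytosolic ribosomal proteins are the proteins that, together with ribosomal RNA, build the large and the small subunit of the ribosome of the cytosol. Their genes were taken from the deposited count table of hearts from Pontin cTG mice and WT littermates by name: the rule kept protein-coding genes called Rpl or Rps with a number, Rplp0 to Rplp2 and Rpsa, and left out the S6 kinases (Rps6k) and the binding proteins of Rps19 (Rps19bp). It found 92 of the 56748 genes listed, of which 21970 are protein-coding. Of the 92, 52 encode proteins of the large subunit and 32 proteins of the small subunit, tissue-restricted paralogs included, and 8 are copies (6 named as pseudogenes, with names ending in ps and a number, and 2 retrogenes). The genes lie on 20 chromosomes, with 14 of them on chromosome 7.

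A ribosome needs nearly all of these proteins in equal numbers, and cells therefore tend to adjust their genes together. In mammals, the mRNAs of nearly all of them begin with a run of pyrimidines (the TOP tract), through which mTOR signalling and the RNA-binding protein LARP1 control their translation. In the heart, ribosome synthesis is best known from hypertrophic growth, during which cardiomyocytes enlarge and make more protein.

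Each of the 6 libraries came from the heart of 1 mouse, with 3 mice in each group. Pontin cTG mice carry a human Pontin (Ruvbl1) cDNA with a flag tag, which the α-myosin heavy chain promoter switches on in cardiomyocytes; the transgene was injected into embryos and founders were bred on C57Bl/6. WT mice were their littermates without the transgene. Per the study's methods, the mice of both groups were males of 10 weeks into which a mini-osmotic pump released Ang-II for 14 days, at a daily 1.5 mg/kg BW, so that no heart without Ang-II entered the comparison. Ruvbl1, the mouse gene of Pontin, had 216, 221 and 217 normalised counts in WT and 249.9, 250.0 and 240.0 in Pontin cTG hearts (replicates 1 to 3), so that the groups were separate (exact permutation test, two-sided, p = 0.1; no smaller p is possible with 3 mice per group). Transgene reads carry the human sequence and may be missed by a mouse alignment, so these counts are no measure of the transgene. Here and below, a normalised count is a gene's count divided by its library's TMM-scaled size, on the scale of an average library.

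Total counts ran from 12436822 to 16888124 per library, with the 3 largest libraries in the Pontin cTG group. Cardiomyocyte genes marked all libraries as heart (Actc1, cardiac actin, had 162342 to 181956 normalised counts), and the 4 adipocyte markers summed to at most 7.81. On the first principal component, which held 48.6% of the variance, Pontin cTG replicate 2 stood apart at 50.9, with the other libraries between -23.1 and 16.2. Where leaving this library out moved a fold change or median of the ribosomal protein genes by over 1.5 times, the value without it is given beside it. In bulk tissue, fewer cells of a type and less RNA per cell cannot be told apart.

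To show the TOP tract, the sequences of 5 members that have it exactly at the RefSeq transcript start are printed first. Each runs from 70 bases before this start through the first 20 transcribed bases (RefSeq, GRCm38.p6, 5′ to 3′ on the gene's strand). The unbroken pyrimidines from the start base are in capitals. Rpl3l, the muscle form of Rpl3, follows at the first of its 2 listed starts. This start has no pyrimidine at its first base and so no capitals.
Rps6 (chr4:86857348-86857437, minus strand): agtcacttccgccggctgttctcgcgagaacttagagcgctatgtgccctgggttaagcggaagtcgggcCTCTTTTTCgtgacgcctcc
Rps18 (chr17:33955646-33955735, minus strand): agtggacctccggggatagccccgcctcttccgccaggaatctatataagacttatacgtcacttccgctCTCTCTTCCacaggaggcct
Rpl38 (chr11:114668510-114668599, plus strand): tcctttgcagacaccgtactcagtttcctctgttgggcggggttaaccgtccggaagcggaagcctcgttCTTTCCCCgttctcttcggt
Rps27 (chr3:90213629-90213718, minus strand): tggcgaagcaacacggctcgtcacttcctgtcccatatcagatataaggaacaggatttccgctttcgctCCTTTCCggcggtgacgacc
Rpl35a (chr16:33056412-33056501, plus strand): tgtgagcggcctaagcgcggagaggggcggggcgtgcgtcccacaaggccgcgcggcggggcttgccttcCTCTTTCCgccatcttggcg
Rpl3l (chr17:24727756-24727845, plus strand): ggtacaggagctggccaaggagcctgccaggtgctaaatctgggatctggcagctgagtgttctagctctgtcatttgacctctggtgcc

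RefSeq's promoter table held 66 of the 92 genes, some with several starts, and a gene was counted where any of its starts matched. A C followed by 4 pyrimidines exactly at the start was found in 14 of the 66 (21.2%), against 3.01% of the 27025 genes in the table. Within 5 bases of the start, it was found in 31 of the 66 (47.0%), against 21.2% of all genes. The letters CCGGAAG, the core that ETS factors bind, stood on either strand between 250 bases before and 50 bases after the start in 26 of the 66 (39.4%), against 9.93% of all genes, whereas TATAAA stood there in 7 (10.6%), against 15.7%. The reverse complement of CCGGAAG begins with a C and pyrimidines, so that 1 stretch can count in both searches. In the hearts, the 14 tested members with the tract at the start had a median log2 fold change (Pontin cTG against WT) of 0.22 and the other 47 tested members with an entry 0.19, and both medians were 0.09 without Pontin cTG replicate 2. The match depends on the exact annotated start, and the 47 include genes with the tract within 5 bases of it, such as Rpl7a, Rpl27a, Rps24 and Rps9. This split therefore does not separate genes with a TOP tract from genes without one. The members with CCGGAAG had a median of 0.19 (25 tested), as had those without it (36 tested), and 0.07 and 0.09 without that library.

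Ribosomal protein genes took 1.10%, 1.21% and 1.08% of all counts in WT hearts and 1.11%, 1.59% and 1.24% in Pontin cTG hearts (replicates 1 to 3). Pontin cTG replicate 2 had by far the highest share, replicate 3 lay just above WT replicate 2, and replicate 1 lay within the WT range, so that the groups overlapped. The mean share was 1.16 times as high in Pontin cTG as in WT hearts, and 1.04 times without Pontin cTG replicate 2. These shares rest on 137545 to 243114 counts per library.

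Of the 92 genes, 85 passed the filter on low counts and were tested among 13888 genes in edgeR. The other 7 were Rpl24 (33 counts over all libraries), Rpl39l (17), Rpl36al (11), Rps23rg1 (8), and Rpl10l, Rps18-ps6 and Rpl36-ps4 (0 each). No member passed an adjusted p of 0.05 in edgeR's quasi-likelihood test, where the background was 0% (0 of 13888 genes), and all 85 had an adjusted p of 0.999. At an unadjusted p under 0.05, 3 members were higher in Pontin cTG hearts (Rpl37a, Rpl35a and Rpl30, or 3.53%, against 1.02% of all genes) and 0 were lower (against 1.03%). DESeq2 also called 0 members after adjustment, against 1 of 13886 genes, and 3 before it, against 219 genes.

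Most members nevertheless stood on the same side. The log2 fold change was above 0 in 82 of the 85 members tested, against 50.2% of all genes, and the 48 tested genes of the large subunit and the 32 of the small subunit were all above 0. The median was 0.19 over the 85 (quartiles 0.14 and 0.26) and 0.00 over all genes. It was 0.19 for genes of either subunit, and -0.05 for the 5 tested copies (0.09 for the large and 0.08 for the small subunit and -0.08 for the copies without Pontin cTG replicate 2). Members share libraries and their scaling, so this count carries no test. With sample quality weights in limma-voom, the median was 0.07 and 71 of 85 lay above 0. Without Pontin cTG replicate 2, it was 0.07 and 69 of 85, and without Pontin cTG replicate 1 it was 0.32 and 82 of 85. Leaving out both replicates numbered 2, a choice made after the data had been seen, it was 0.11 and 75 of 84.

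**Figure D1:**
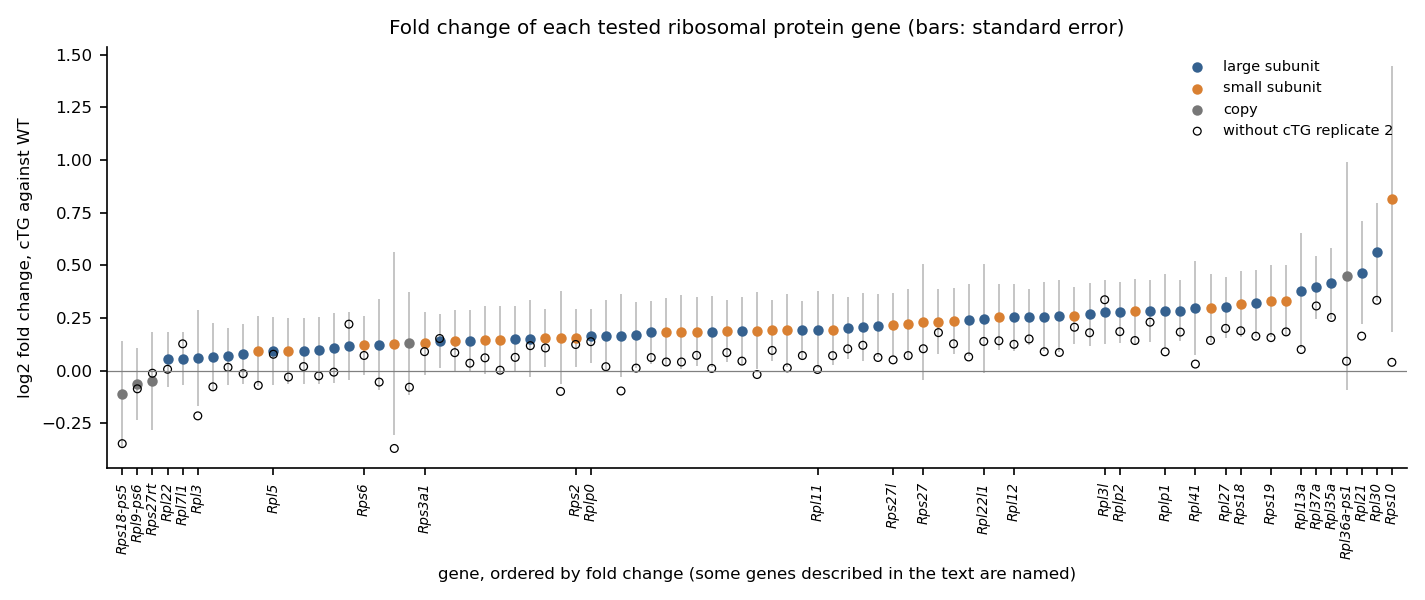
Log2 fold change (vertical axis, Pontin cTG against WT) of each of the 85 tested ribosomal protein genes in order (horizontal axis), as filled points with standard error bars, coloured by subunit; open circles give the value without Pontin cTG replicate 2, and names are given for some of the genes described in the text. Filled points are above 0 for 82 genes, and open circles for 69.

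The Pontin cTG hearts differed among themselves. Relative to the WT mean on the log2 scale, the median member stood at 0.01, 0.06 and -0.08 in the WT libraries and at -0.02, 0.43 and 0.17 in the Pontin cTG libraries, while the median of all genes stayed between 0.00 and 0.01 in each library. In Pontin cTG replicates 2, 3 and 1, 81, 78 and 37 of the 85 members lay above their WT mean, against 7116, 7021 and 7042 of the 13888 genes. Pontin cTG replicate 2 was the highest of the 6 libraries for 72 of the 85 members, against 30.2% of all genes. The lowest was WT replicate 3 for 40 and Pontin cTG replicate 1 for 21, for which the share over all genes was not worked out. The median coefficient of variation of a member was 8.13% among WT hearts and 16.7% among Pontin cTG hearts, or 10.9% between Pontin cTG replicates 1 and 3.

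**Figure D2:**
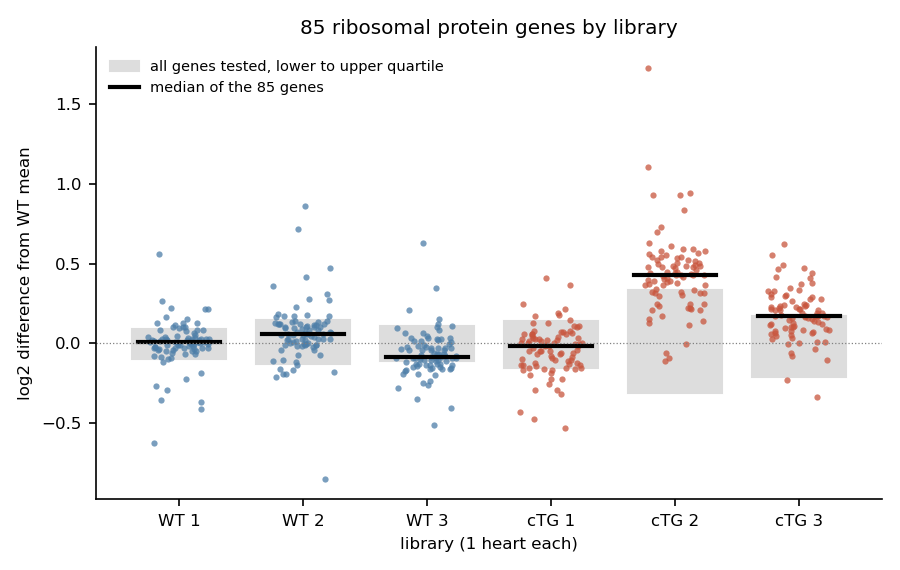
Log2 difference of each of the 85 tested ribosomal protein genes from its WT mean (points, vertical axis) in each of the 6 libraries (horizontal axis); black lines are medians and grey boxes run from the lower to the upper quartile of all 13888 genes. The black line is at 0.43 in Pontin cTG replicate 2 and at -0.02 in Pontin cTG replicate 1.

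All Pontin cTG libraries were above all WT libraries for 10 of the 85 members (11.8%), against 4.7% of all genes, and none was below all WT libraries, against 3.63%. Among these 10 were Rplp0, Rplp1, Rpl27, Rpl31, Rpl35a, Rpl37, Rpl37a and Rps9, named for this pattern after their values had been seen. For single libraries, Pontin cTG replicate 2 exceeded all WT libraries in 78 members, replicate 3 in 57 and replicate 1 in 14, while replicate 1 lay below all WT libraries in 22. The shares over all genes were not worked out for these single-library counts, so they cannot be set against a background. Without replicate 1, 56 members did not overlap (against 11% of genes in a comparison of 2 hearts with 3), and without replicate 2 the number was 12 (again against 11%).

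Among proteins of the ribosomal stalk, which recruits elongation factors to the ribosome, all 4 genes were above 0. Rplp0, the base of the stalk (ENSMUSG00000067274, chromosome 5 from 115559467 to 115563727, GRCm38), had 7300.0, 7390.1 and 7607 normalised counts in WT and 7986, 8612 and 8358 in Pontin cTG hearts. Every Pontin cTG heart lay above every WT heart, by a narrow margin (log2 fold change 0.16, standard error 0.13; exact permutation p = 0.1). Rplp1, which forms the stalk's arms with Rplp2, had 3021, 3097 and 2787 in WT and 3126, 4524 and 3187 in Pontin cTG hearts. Its groups did not overlap either, but Pontin cTG replicates 1 and 3 were close to the WT hearts and only replicate 2 was far above (log2 fold change 0.28, standard error 0.17, and 0.09 without replicate 2). Rplp2 had 1357, 1242 and 1448 in WT and 1417, 1838 and 1648 in Pontin cTG hearts. For Rpl12, which sits at the foot of the stalk, the values were 1417, 1515 and 1256 in WT and 1395, 1951 and 1648 in Pontin cTG hearts. In both genes, Pontin cTG replicate 1 lay within the WT range, and the log2 fold changes were 0.28 and 0.25 (standard errors 0.14 and 0.16), and 0.19 and 0.12 without replicate 2.

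The members with the smallest unadjusted p all belong to the large subunit up to rank 4. Rpl37a, a zinc finger protein (ENSMUSG00000046330, chromosome 1 from 72711290 to 72713813), had 1299, 1016 and 1183 normalised counts in WT and 1378, 1716 and 1506 in Pontin cTG hearts. All 3 Pontin cTG hearts were above all WT hearts, and the log2 fold change was 0.39 (standard error 0.15, unadjusted p = 0.027 in edgeR) and 0.31 without replicate 2. Rpl35a, one of the genes mutated in Diamond-Blackfan anaemia, an inherited failure of red cell production (ENSMUSG00000060636, chromosome 16 from 33056453 to 33060189), had 569, 679.8 and 699 in WT and 707, 1049.8 and 839 in Pontin cTG hearts. Here Pontin cTG replicate 1 cleared the highest WT heart by little (log2 fold change 0.41, standard error 0.17, unadjusted p = 0.037, and 0.25 without replicate 2).

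Rpl30, which also binds its own transcript in yeast, had the largest log2 fold change among members with over 100 normalised counts, at 0.56 (standard error 0.23, unadjusted p = 0.039). Its normalised counts (ENSMUSG00000058600, chromosome 15 from 34440505 to 34443640) were 959, 1024 and 767 in WT and 906, 1753 and 1402 in Pontin cTG hearts. Replicates 2 and 3 of Pontin cTG were high while replicate 1 lay among the WT hearts, so the groups overlapped, and the value without replicate 2 was 0.33. Rpl27, another Diamond-Blackfan gene, had 1412, 1437 and 1452 in WT, a spread of only 20.4 (SD, n = 3), and 1491, 2001 and 1802 in Pontin cTG hearts. Rps18, a protein of the small subunit's head, had 1759.8, 1719 and 1573 in WT and 1749.6, 2449.7 and 2088 in Pontin cTG hearts. The groups were separate for Rpl27 and overlapped through Pontin cTG replicate 1 for Rps18 (log2 fold changes 0.30 and 0.32, standard errors 0.14 and 0.16, and 0.20 and 0.19 without replicate 2).

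**Figure D3:**
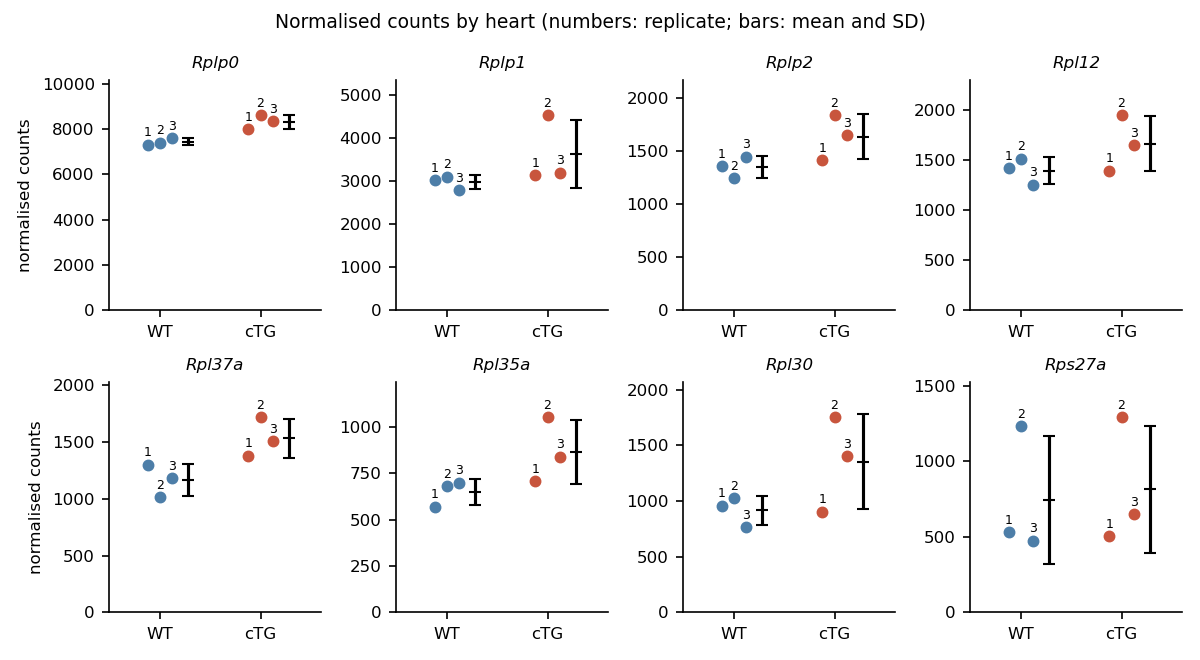
Normalised counts (vertical axes, from 0) of the 4 stalk genes, of Rpl37a, Rpl35a and Rpl30, and of Rps27a in WT and Pontin cTG hearts; each point is 1 heart with its replicate number, and the bars give mean and SD (n = 3). Replicate 2 is the highest Pontin cTG heart in each panel, and in the Rps27a panel WT replicate 2 is as far above its own group.

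Other large fold changes came from members with few counts or from 1 heart. Rps10, a protein of the small subunit's head, had the largest log2 fold change, 0.81 with a standard error of 0.63, on only 6.61, 14.6 and 6.71 normalised counts in WT and 5.86, 30.0 and 13.0 in Pontin cTG hearts. Its value rested on replicate 2, and without that library it was 0.04. Of the 100-base windows of its mRNA, 89.5% also occur in other annotated genes, as do 80.1% of those of Rpl24, 59.0% of those of Rpl36al and 55.2% of those of Rpl13a, which had few counts too. How reads that match several genes were counted is not given in the sources used here, and the levels of these genes are uncertain. Rpl21 had 444, 329 and 379 in WT and 507, 727 and 354 in Pontin cTG hearts. Replicate 1 was above the WT range and replicate 2 far above it, while replicate 3 lay within it (log2 fold change 0.46, standard error 0.24, 0.16 without replicate 2). Rpl36a-ps1, a copy of Rpl36a, had 9.91, 4.49 and 13.4 in WT and 6.83, 18.8 and 12.1 in Pontin cTG hearts, which overlapped (log2 fold change 0.45, standard error 0.54, and 0.04 without replicate 2).

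The 3 members with a log2 fold change below 0 were all copies: Rps18-ps5 (-0.11, standard error 0.25), Rpl9-ps6 (-0.06, standard error 0.17) and the retrogene Rps27rt (-0.05, standard error 0.23). Without Pontin cTG replicate 2 their values were -0.35, -0.09 and -0.01. Rps27rt had 279, 520.5 and 547 normalised counts in WT and 483, 412 and 406 in Pontin cTG hearts, so that WT replicate 1 was the lowest heart. Its parent gene Rps27, also a Diamond-Blackfan gene, had 966, 583 and 494 in WT and 558, 938 and 904 in Pontin cTG hearts, with WT replicate 1 the highest (log2 fold change 0.23, standard error 0.28, and 0.10 without Pontin cTG replicate 2). Since 98.4% of the windows of the Rps27 mRNA and 89.5% of those of Rps27rt occur in other genes, how reads were divided between them is uncertain. Rpl22 (0.05) and Rpl7l1 (0.06) were the lowest members above 0, and stood at 0.01 and 0.13 without Pontin cTG replicate 2.

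Paralogs allow ribosomes to differ between tissues, and Rpl3l, which takes the place of Rpl3 in heart and skeletal muscle, was the paralog with the highest level per length. It lies on chromosome 17 from 24727820 to 24736143 and Rpl3 on chromosome 15 from 80077791 to 80091868. Rpl3l had 2427, 2321 and 2790.2 normalised counts in WT and 2865, 2788 and 3478 in Pontin cTG hearts, and none of the windows of its mRNA occurred in another gene. Pontin cTG replicate 3 was the highest heart, and replicate 2 lay just below the highest WT heart (log2 fold change 0.28, standard error 0.15, and 0.34 without replicate 2). Rpl3 had 2109.9, 2532 and 1727 in WT and 1871, 2979 and 1787 in Pontin cTG hearts. It was highest in both replicates numbered 2, and its log2 fold change was 0.06 (standard error 0.23) with replicate 2 of Pontin cTG and -0.21 without it.

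Per 1000 bases of mRNA, the ratio of Rpl3l to Rpl3 was 1.13, 0.901 and 1.59 in WT and 1.5, 0.92 and 1.91 in Pontin cTG hearts. Rpl3l was above Rpl3 in 4 hearts and below it in the 2 hearts numbered 2, and the groups did not differ beyond this spread (means 1.21 ± 0.350 and 1.45 ± 0.499, SD, n = 3; two-sided exact permutation test on the log2 ratio, p = 0.7). Because 79.4% of the windows of the Rpl3 mRNA occur in other genes, its level per length is uncertain.

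**Figure D4:**
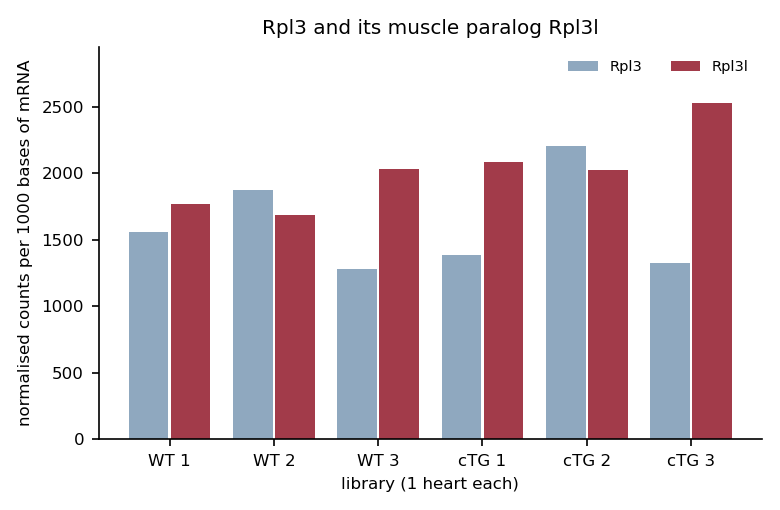
Normalised counts per 1000 bases of mRNA (vertical axis, from 0) of Rpl3 and Rpl3l in each of the 6 hearts (horizontal axis). Rpl3l is the higher bar in 4 hearts and the lower bar in WT replicate 2 and Pontin cTG replicate 2.

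The other paralogs were lower than their general genes. Per 1000 bases, Rps27l, a p53 target, stood at 0.398, 0.606 and 0.713 of Rps27 in WT and 0.668, 0.548 and 0.420 in Pontin cTG hearts. Because 98.4% of the windows of the Rps27 mRNA occur in other genes, this ratio is uncertain. Rpl7l1, which acts in ribosome assembly, stood at 0.141, 0.120 and 0.153 of Rpl7 in WT and 0.173, 0.109 and 0.128 in Pontin cTG hearts. Rpl22l1 stood at 0.0477, 0.0889 and 0.0627 of Rpl22 in WT and 0.0631, 0.0819 and 0.0808 in Pontin cTG hearts. For these 3 pairs the hearts of the groups overlapped (exact permutation p = 0.8, 1 and 0.6), and over the 4 ratios compared, Rpl3l included, each adjusted p of the exact test was 1. In normalised counts, Rps27l had 556, 512 and 509.7 in WT and 539.9, 744 and 549 in Pontin cTG hearts, with only replicate 2 outside the WT range. Rpl22l1 had 99.1, 184 and 126 and 120.1, 186 and 179, with the lowest heart in the WT group and the highest in replicate 2 of Pontin cTG (log2 fold changes 0.22 and 0.25, and 0.05 and 0.14 without that library). Rpl10l, which replaces Rpl10 in the testis, had 0 counts in every heart, and Rpl39l and Rpl36al had too few counts to be tested. Rps4l, listed with these pairs, is annotated as a pseudogene and was not a member.

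Rpl5 and Rpl11 form a particle with 5S ribosomal RNA, which binds Mdm2 when ribosome assembly is disturbed. Rpl5 had 3527, 3396 and 2937 normalised counts in WT and 2927, 3579.9 and 4006 in Pontin cTG hearts. Rpl11 had 1944, 2263 and 2030.0 in WT and 1894, 2967 and 2277 in Pontin cTG hearts. Both overlapped between the groups (log2 fold changes 0.09 and 0.19, standard errors 0.16 and 0.18), Rpl5 being highest in Pontin cTG replicate 3 and Rpl11 in replicate 2. Without replicate 2, the log2 fold change was 0.08 for Rpl5 and 0.0052 for Rpl11.

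The 17 genes mutated in Diamond-Blackfan anaemia were all tested and all above 0, with a median log2 fold change of 0.21 (0.10 without Pontin cTG replicate 2, all 17 still above 0), beside 0.19 for the 85 members. Rps19, the gene most often mutated in the disease, had 1131, 1148 and 1175 normalised counts in WT and 1143, 1781 and 1422 in Pontin cTG hearts. The WT hearts were close together, and Pontin cTG replicate 1 lay among them while replicates 2 and 3 were above (log2 fold change 0.33, standard error 0.17, and 0.16 without replicate 2).

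The 9 genes with a known role in regulated or selective translation were all above 0 as well (median 0.14, and 0.04 with 6 of 9 above 0 without Pontin cTG replicate 2), with no gene whose groups were separate. Rps6, whose protein S6 kinase phosphorylates downstream of mTOR, had 3096, 3455 and 2993 normalised counts in WT and 3139, 3685 and 3546 in Pontin cTG hearts. Pontin cTG replicates 2 and 3 were above all WT hearts and replicate 1 was not (log2 fold change 0.12, standard error 0.14, and 0.07 without replicate 2). Rpl13a, which silences translation of some inflammatory mRNAs once released from the ribosome, had 63.9, 101 and 74.9 in WT and 80.1, 140.4 and 91.0 in Pontin cTG hearts (log2 fold change 0.38, standard error 0.27, 0.10 without replicate 2). Only replicate 2 was above the highest WT heart. Rpl38, needed for translation of Hox mRNAs, had 402, 353 and 385 in WT and 273, 510.3 and 457 in Pontin cTG hearts, among which replicate 1 was the lowest of all hearts and replicate 2 the highest.

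Levels were compared between members per 1000 bases of mRNA. The highest were those of Rplp1 (6594 ± 1242 normalised counts per 1000 bases, SD over the 6 hearts), Rps2 (6585 ± 568), Rplp0 (5799 ± 393), Rpl41 (5799 ± 1464) and Rps3a1 (5308 ± 556), and the SDs of neighbours in this order overlapped. Rps2, at the mRNA channel of the small subunit, had 5732, 6174 and 6739.6 normalised counts in WT and 6466, 7244 and 7076 in Pontin cTG hearts. Rpl41, the smallest ribosomal protein, had 2265, 2644 and 1913 in WT and 2191, 3739 and 2454 in Pontin cTG hearts. For Rps3a1 the values were 4997, 5407 and 4452 in WT and 4741, 5717 and 5798 in Pontin cTG hearts. These genes overlapped between the groups, with log2 fold changes of 0.16, 0.30 and 0.13 (standard errors 0.14, 0.22 and 0.15), and only Rpl41 rested mainly on replicate 2 (0.03 without it). Of the 80 tested subunit genes, 72 had at least 1000 normalised counts per 1000 bases.

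A different order of hearts was seen for Rps27a. This gene, which encodes ubiquitin fused to a ribosomal protein and was named after its values had been seen, had 529.7, 1233 and 474 normalised counts in WT and 503, 1290.3 and 649.7 in Pontin cTG hearts. WT replicate 2 and Pontin cTG replicate 2 were about equally high and all other hearts low, so the groups overlapped fully. Fibroblast markers were also highest in both replicates numbered 2: the 6 genes together had 15941, 24437 and 14015 in WT and 15999, 22221 and 13371 in Pontin cTG hearts. Their part in the level of Rps27a or of other members was not tested.

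The members were also set out by the length of their mRNA, again that of 1 annotated transcript per gene. The median log2 fold change was 0.24 for the 30 tested subunit genes with an mRNA under 600 bases, 0.18 for 31 genes of 600 to under 1000 bases and 0.16 for 19 genes of at least 1000 bases. Without Pontin cTG replicate 2, the medians of these classes were 0.09, 0.07 and 0.08 and the order by length was lost. In that library, the median difference from the WT mean was 0.47, 0.39 and 0.38. Gene length also moved with the libraries outside the family. Over all genes tested, Spearman's rho between the gene length in the deposited table and the log2 difference from the mean of the 6 libraries was 0.185, 0.177 and 0.11 in WT and 0.0838, -0.205 and -0.156 in Pontin cTG hearts. All Pontin cTG libraries thus lay below all WT libraries, and replicates 2 and 3 were the ones below 0 (a correlation across genes, which share their library and are not independent replicates). In Pontin cTG replicate 2, the median of the other tested genes was 0.13 under 500 bases, 0.23 from 500 to under 1000, 0.22 from 1000 to under 2000, 0.08 from 2000 to under 4000 and -0.09 from 4000 bases. The members' medians in these classes lay between 0.39 and 0.58 (0.45 for the 33 members of 1000 to under 2000 bases and 0.45 for the 6 of 4000 bases or more). These classes rest on the deposited gene length, which can be far from the mRNA length (6270 against 640 bases for Rps15a and 4685 against 633 for Rps19). They therefore cannot show whether the members followed the order by mRNA length. With an offset for the same deposited gene length in each library, the median log2 fold change of the members was 0.10 (0.01 over all genes). Of the 85 members, 80 were above 0 and 8 did not overlap (background 3.79%). The part of library quality in these values was not tested. The median was 0.18 for the 13 tested subunit genes with under 10% of their windows in other genes and 0.19 for the 35 with at least 50% (0.06 and 0.09 without Pontin cTG replicate 2).

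Fau and Rack1 encode ribosomal proteins under other names and so were not members. Fau had 1167, 1216 and 1198 normalised counts in WT and 1280.0, 1854 and 1409 in Pontin cTG hearts. All Pontin cTG hearts were above all WT hearts, with replicate 2 the highest (log2 fold change 0.34, standard error 0.16, adjusted p = 0.999 in edgeR, and 0.17 without replicate 2). Rack1, by contrast, overlapped between the groups (log2 fold change 0.10, standard error 0.14, and 0.01 without Pontin cTG replicate 2).

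The rest of the translation machinery was read from lists, none of whose genes passed an adjusted p of 0.05 in edgeR. As background for the counts below, 50.2% of all genes tested had a log2 fold change above 0. All Pontin cTG hearts were above all WT hearts for 4.7% of genes and below them for 3.63%. Of 17 translation factors and related genes with TOP mRNAs, 12 were above 0 (median log2 fold change 0.10, and 0.10 without Pontin cTG replicate 2), and 3 had separate groups: Eif3h and Btf3, named for this after their values had been seen, and Eef1d, a subunit of the exchange factor for elongation factor 1 (1471, 1504 and 1473 normalised counts in WT and 1543, 1957 and 1699 in Pontin cTG hearts; log2 fold change 0.22, standard error 0.14, and 0.13 without Pontin cTG replicate 2). Of 34 ribosome assembly factors, 19 were above 0 (median 0.03 with and without Pontin cTG replicate 2), and 4 had separate groups, all higher in Pontin cTG hearts: Gar1, Nop10 and Mrto4, named for this after their values had been seen, and Rrp9, with 194, 199.7 and 205 normalised counts in WT and 234, 265 and 243 in Pontin cTG hearts (log2 fold change 0.31, standard error 0.13, unadjusted p = 0.039 in edgeR, and 0.26 without Pontin cTG replicate 2). Of 13 RNA polymerase I genes, 7 were above 0 (median 0.01, and -0.03 without Pontin cTG replicate 2), and 0 had separate groups. Of 14 genes of mTOR, LARP1 and Myc signalling, 6 were above 0 (median -0.06, and 0.01 without Pontin cTG replicate 2), and 1 had separate groups. This was Max, the partner of Myc, with 398, 461 and 456 normalised counts in WT and 583, 500.04 and 618 in Pontin cTG hearts (log2 fold change 0.37, standard error 0.13, unadjusted p = 0.022 in edgeR, and 0.45 without Pontin cTG replicate 2). The summed level of RNA polymerase I genes was 4544, 4461 and 4563 in WT and 4634, 4345 and 4518 in Pontin cTG hearts, lowest in Pontin cTG replicate 2, where the ribosomal proteins were highest. Mitochondrial ribosomal proteins, which build the separate ribosome of mitochondria, had 70 of 77 tested genes above 0, a median log2 fold change of 0.13 (0.09 when Pontin cTG replicate 2 is left out), and 17 genes with all Pontin cTG hearts above WT (against the 4.7% of all genes given above). In WT replicate 2 their median lay 0.08 below the WT mean on the log2 scale, where that of the cytosolic ribosomal proteins lay 0.06 above.

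Markers of other cell types were set beside these values. The 6 macrophage markers summed to 2330.2, 3815 and 2392 in WT and 2474, 2474 and 1694 in Pontin cTG hearts, highest in WT replicate 2 and lowest in Pontin cTG replicate 3, and 5 of 6 had a log2 fold change below 0. The 6 endothelial markers ran from 11451 to 15888 normalised counts in sum, the 5 erythroid ones from 11695 to 22338 and the 4 smooth muscle ones from 2851 to 3582, each with overlapping groups, and the 6 lymphocyte markers summed to at most 35.1, with none passing the filter on low counts. The endothelial and lymphocyte sums were highest in Pontin cTG replicate 2, and the macrophage, erythroid and smooth muscle sums in a WT heart. The 8 cardiomyocyte markers summed to between 636281 and 794678. The part of these cells in the levels of the ribosomal proteins was not tested.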

How the data were processed

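RNA-seq libraries of 6 hearts (3 WT, 3 Pontin cTG) were analysed from 1 deposited table of raw counts per gene. The paper's methods name Trimmomatic, STAR, mm10 and Gencode M25 for the authors' processing, whereas the submitters' processing notes name fastp, HISAT2, featureCounts and GRCm39, and which of these made the counts cannot be told. The paper's methods also report leaving out an outlier found by principal components, without naming the sample or the experiment. For the comparison of Pontin cTG with WT, the paper gives 3 mice per group. Gene lengths are the authors' own column, whose definition is not given in the sources used here; 0 columns were left unmatched.

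Counts were filtered with filterByExpr (minimum count 10), TMM-normalised and tested with edgeR 4.0.16 (quasi-likelihood, robust) in R 4.3.3, in a model of genotype alone, with p-values adjusted by Benjamini-Hochberg over 13888 genes. The standard error is the log2 fold change divided by the square root of F. Log2 levels per library used a pseudocount of 0.5. The tests were first tried on simulated counts with 200 changed genes. Members and lists were chosen with earlier results of these data known. Genes were named by rule: the 5 largest and 5 smallest log2 fold changes, the 5 smallest p, the 5 highest levels per length and the member lists; exceptions are marked, and values of some genes are not reported here. Alternatives were DESeq2 1.42.0, limma-voom (limma 3.58.1), other scalings and filters, a gene length offset, the replicate block and leaving out libraries.

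Positions and mRNA lengths are from GENCODE M21 (GRCm38), matched by identifier for all 92 genes, since only 1435 of 52073 shared genes had the table's coordinates. The labels do not say whether the mice shared litters. The p-values from edgeR set the difference between the groups against the spread between these hearts, which is moderated over all genes. Depth was 12436822 to 16888124 counts per library. Intervals for counting error were not computed. Over all genes, the spread between hearts exceeded it (chi-square per gene of at least 5.55 for each pair of libraries), which need not hold for members with few counts, such as Rps10 and Rpl36a-ps1.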

Additional observations from a re-analysis of the deposited data

How the results depend on the processing

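Under every alternative run, 0 members passed an adjusted p of 0.05 and the median log2 fold change of the members stayed above 0. The median lay between 0.07 (limma-voom with quality weights) and 0.23 (library size alone) under the other settings, against 0.19. With each library left out in turn it was lowest without Pontin cTG replicate 2 (0.07) and highest without Pontin cTG replicate 1 (0.32), the ratio of the share of counts ran from 1.04 to 1.25, and the number of members without overlap from 12 to 56, against 10. The smaller groups leave fewer libraries to overlap, and the share over all genes ran from 7.21% (without WT replicate 1, 20 members) to 11% (56 members when Pontin cTG replicate 1 was left out and 12 when replicate 2 was), against 4.7%. Without both replicates numbered 2, that number was 21 (background 16.4%). Scaling by library size raised the median of all genes by 0.03.

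Of 393 single-gene values under other settings, 9 changed direction. With limma-voom these were Rpl5 (-0.022), Rpl3 (-0.10), Rpl22 (-0.024), Rps27 (-0.16), Rpl36a-ps1 (-0.15) and Rps27rt (0.32). Without both replicates numbered 2 they were Rpl3 (-0.067), Rpl36a-ps1 (-0.28) and Rps27rt (0.11). The cause was not tested. With 1 library left out, the direction changed for Rpl5 (-0.014 to 0.21), Rpl3 (-0.21 to 0.20), Rps27rt (-0.30 to 0.13), Rpl9-ps6 (-0.16 to 0.084) and Rps18-ps5 (-0.35 to 0.13).

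Same-numbered libraries deviated together with correlations of 0.077, 0.43 and 0.19, which do not all pass 0.1, so the numbers were not taken to pair the hearts. With the replicate block, the median was 0.18 with 0 members past an adjusted p of 0.05.

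With 3 hearts per group, a shift of this size in a single gene is near its standard error, and 7 low-count members could not be tested.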

Other observations

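Non-coding host genes of small nucleolar RNAs, whose transcripts also start with a TOP tract, were looked at after the members' values had been seen. Gas5 had 139, 264 and 118 normalised counts in WT and 127, 351 and 185 in Pontin cTG hearts, Snhg1 had 57.3, 52.7 and 32.4 and 33.2, 97.6 and 38.1, and Zfas1 had 44.0, 71.8 and 50.3 and 51.7, 116 and 71.9. Pontin cTG replicate 2 was the highest heart for all 3, and for Gas5 the next highest was WT replicate 2, the order also seen for Rpl3 and Rps27a. The groups overlapped for each (edgeR adjusted p = 0.999).

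The table also lists 307 pseudogenes named after ribosomal proteins. Their counts came to 6.10%, 6.10% and 6.20% of those of the members in WT and 6.02%, 5.89% and 5.67% in Pontin cTG hearts. Every Pontin cTG heart thus lay below every WT heart, by a narrow margin, and the lowest was replicate 3. How reads that match both a member and a pseudogene were counted is not given, so these shares are uncertain.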
